A study of Mus musculus with 2 samples.

Results

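Crowded brown fat PPARγ sites are the 214 regions, of 3557 in the list of regions deposited as specific to brown adipose tissue (BAT), that lie 3 or more together. Regions were sorted along each chromosome and joined when their midpoints were at most 12.5 kb apart, and every group of at least 3 was kept. This gave 65 clusters, which hold 6.02% of the BAT-specific regions. The whole series holds 8268 regions, the other 4711 being specific to epididymal white adipose tissue (eWAT). The positions of the BAT-specific regions chose the clusters, so cluster sizes and the spacing up to the joining distance are given as descriptions.

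PPARγ is a nuclear receptor that binds DNA as a dimer with RXR, typically at a direct repeat of a hexamer half-site, and is required for the formation of all fat cells. In brown fat, which burns lipid to make heat, it acts together with other transcription factors, among them EBF2, which is named in the title of the series. Several receptor-bound sites close together on a chromosome are a common feature of enhancer groups around genes that define a cell type, although crowding alone does not identify such a group.

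For the BAT library, male 129SV mice between 8 and 10 weeks old were kept on normal chow, and the tissue was taken at zeitgeber time 10 h and fixed in 1% formaldehyde. The eWAT library came from mice of the same strain, sex and age, handled in the same way. No genotype, allele or drug treatment is given for either group. Chromatin from 4 mice per tissue was immunoprecipitated with a PPARγ antibody and the DNA pooled, so each tissue is 1 library of whole tissue, no difference below has a replicate check, and animals cannot be compared.

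Every region is 200 bp wide, so the 214 regions cover 42800 bp. Positions are taken as mm9, 1 of the 2 builds named by the submitters, and are given 1-based. On chromosome 7 the BAT-specific regions run to 152442366, which, by general knowledge of that build, is past the end of the chromosome in mm8, the other build named. The strength of a region is its deposited score, which has no stated unit and is compared here only within the BAT list. BAT scores are whole multiples of 0.0687 in 99.9% of regions (tolerance 0.005), as scaled read counts would be. A score divided by this step is called a number of steps, and a Poisson interval on it assumes 1 step per tag and covers counting error only. The lists hold no expression values, and no gene annotation or sequence of mm9 was used, so the tissue label could not be checked against marker genes, genes are not assigned to clusters and no sequence is printed.

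Most crowded clusters held the smallest number that the rule admits. There were 48 clusters of 3 regions, 15 of 4 and 2 of 5. The median cluster spanned 11.0 kb from the outer edge of its first region to that of its last, and the range was 1.64 to 32.6 kb. Only 8 clusters were shorter than 5 kb, and 6 were longer than 20 kb. The eWAT list gave the same number of clusters under this rule, 65 with 219 regions, and their median span was 11.1 kb. The largest eWAT cluster held 13 regions. The other eWAT clusters were 51 of 3 regions, 12 of 4 and 1 of 5, and no BAT cluster held more than 5. The eWAT list is longer than the BAT list, so equal numbers of clusters do not stand for equal crowding. The step fitted to the eWAT scores was 0.3484, against 0.0687 for BAT. The 2 libraries may therefore differ in depth or scaling, which was not tested and bears on every eWAT count here.

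Inside the clusters, neighbouring sites were spread over all distances that the rule allows. The 149 gaps between neighbouring midpoints had a median of 3.65 kb, and 84 of them were at most 5 kb. At most 1 kb separated 25 pairs of neighbours (16.8%, exact 95% interval 11.2 to 23.8%). The 2 closest neighbours were 245 bp apart, which leaves 45 bp between their edges, so no 2 clustered regions overlapped. The 318 pairs of BAT-specific regions, which stand alone as pairs, had a median gap of 4.06 kb, and 16.98% of their gaps (13.02 to 21.6%) were at most 1 kb. The intervals of clusters and pairs overlap in every distance class.

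**Figure D1:**
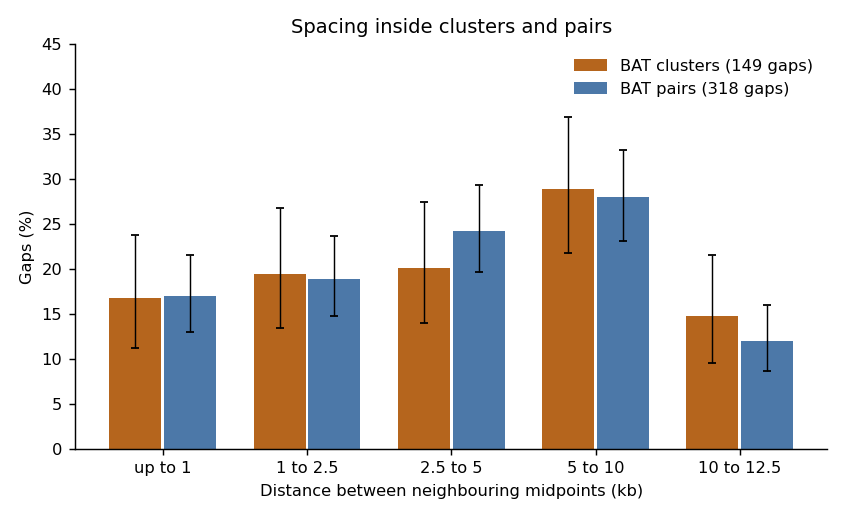
Distances between neighbouring midpoints (kb, 5 classes) as a percentage of the 149 gaps inside clusters and of the 318 gaps inside pairs of BAT-specific regions, with exact 95% binomial intervals as error bars. The classes reach similar heights in both, and the widest class, 5 to 10 kb, holds the largest share, 28.9% in clusters and 28.0% in pairs.

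The limit of 12.5 kb cuts through a continuous range. The widest gaps that still joined a cluster were 12348 bp on chromosome 8 and 12335 bp on chromosome 2. Just outside, a pair on chromosome 7 (chr7:74624543-74625253, scores up to 4.26) had its next BAT-specific region 12.6 kb away, and so did a pair on chromosome 12 (chr12:81024784-81025274, scores up to 3.64). Within 15 kb of 17 pairs there was a further BAT-specific region. A gap of more than 10 kb was needed to hold 19 of the 65 clusters together.

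The cluster at chr8:85796451-85811850 had 5 regions and the larger summed score of the 2 clusters of 5, 30.83. By general knowledge of mm9, and not from any file used here, this interval lies upstream of Ucp1, the mitochondrial uncoupling protein that lets brown fat make heat. Along the chromosome the 5 regions scored 2.54, 3.64, 4.94, 10.16 and 9.55. The 2 strong regions are neighbours at one end, at chr8:85809465-85809664 (148 steps, 95% Poisson interval 125 to 174) and chr8:85811651-85811850 (139 steps, 117 to 164), with 2.19 kb between their midpoints. Their intervals overlap, so the order of these 2 is not fixed by the depth. The weakest region, at the opposite end, had 37 steps (26.1 to 51.0). No other BAT-specific region lay within 100 kb on either side, the next being 293 kb away, and the nearest eWAT-specific region was 75.6 kb away.

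The second cluster of 5, at chr2:35288142-35308229, was divided in its spacing. Its scores in order were 5.84, 3.98, 2.33, 3.71 and 8.79. A gap of 11.9 kb divides the first 2 regions from the other 3. The strongest region (chr2:35308030-35308229, 128 steps, 107 to 152) stood at the edge that faces another crowded cluster on the same chromosome. The lowest score, 2.33, was in the middle of the cluster.

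The highest summed score of any crowded cluster, 32.76, belonged to 4 regions at chr15:85551275-85562458. The scores were 12.77, 7.49, 5.29 and 7.21, all above the BAT median of 3.57. The first region, chr15:85551275-85551474, ranked 14 in the whole BAT list, with 186 steps (160 to 215). The 2 inner regions were 620 bp apart.

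Other clusters of 4 carried several strong sites rather than 1. At chr2:174430611-174435663 the 4 regions lay within 5.05 kb and alternated between 4.46, 8.52, 4.60 and 8.17. At chr9:62353901-62372894 the scores were 8.38, 3.37, 8.72 and 4.46, again with weaker sites beside stronger ones. At chr19:34894142-34924182, a cluster of 30.0 kb, the 2 outer regions scored 7.83 and 7.76 and the 2 inner ones 5.77 and 3.78.

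A fall from 1 end to the other was seen at chr5:89346742-89367558, with scores of 10.44, 7.69, 4.53 and 2.54. The intervals of its first region (152 steps, 129 to 178) and its last (37 steps, 26.1 to 51.0) do not overlap. A single strong site at 1 end, followed by weaker ones, was found at chr10:92748347-92760823 (7.90, 3.16, 2.75 and 3.37) and chr11:95634704-95667324 (7.55, 2.13, 3.64 and 3.23). The latter is the longest cluster of all, at 32.6 kb, and none of its 3 gaps was under 10.1 kb. The strongest region held 46.0% of the summed score in the former and 45.6% in the latter.

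The remaining 8 clusters of 4 had summed scores from 10.71 to 19.57. The highest of them was chr14:79672786-79687065, with 4.19, 6.11, 6.39 and 2.88. A second cluster on chromosome 8, chr8:127446790-127461527, scored 2.61, 4.88, 3.37 and 5.84 and was split into 2 close pairs by the widest gap that still joined a cluster. Split layouts of this kind were also seen at chr11:88710759-88725446 (2.75, 3.37, 5.36 and 2.68), where 10.6 kb divides the pairs. At chr11:107240801-107255094 the scores were 4.05, 5.77, 2.54 and 2.47, and at chr17:29521765-29536477 they were 3.23, 4.12, 5.01 and 2.47.

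The lowest summed scores among clusters of 4 or 5 were on chromosomes 6, 12 and 4. At chr6:30116965-30120514, 4 regions within 3.55 kb scored 2.47, 2.82, 3.02 and 2.40, all under the BAT median. At chr4:153715146-153722264 they scored 4.12, 3.09, 3.09 and 1.99 within 7.12 kb, and the last is the lowest score of any clustered region (29 steps, 19.4 to 41.6). At chr12:80997053-81008011 the scores were 2.54, 2.20, 4.05 and 3.30.

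**Figure D2:**
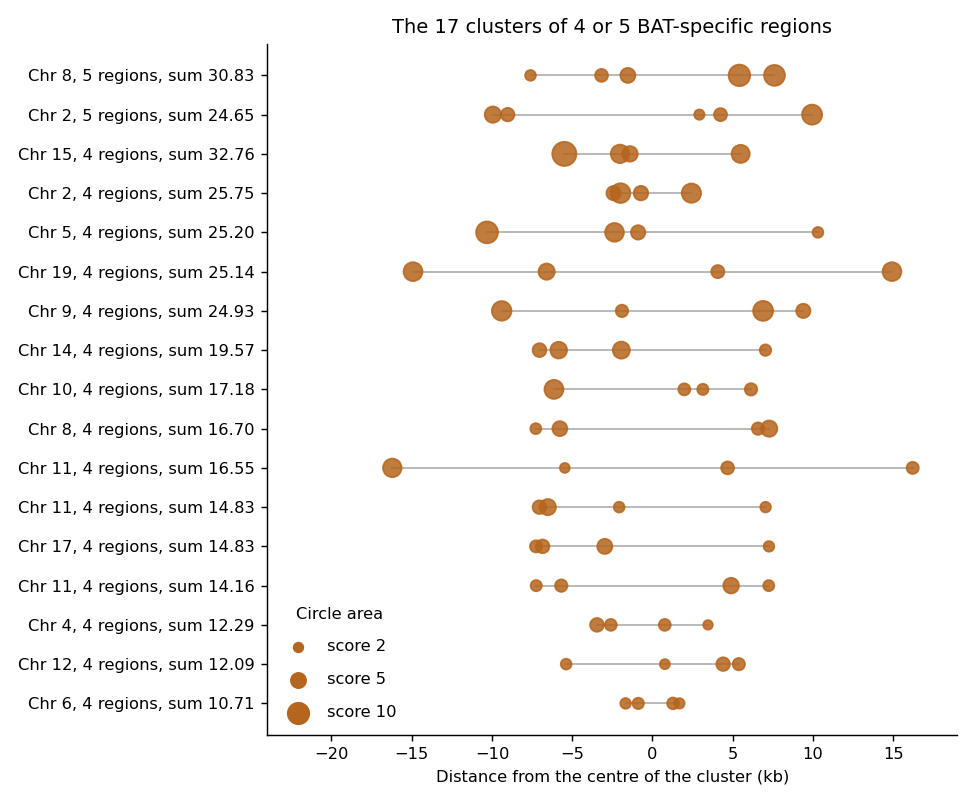
Position of each region (kb from the centre of its cluster) in the 17 clusters of 4 or 5 BAT-specific regions, 1 row per cluster, ordered by size and summed score; circle area is proportional to the deposited score. The largest circles lie at either end or in the middle, and the longest row, on chromosome 11, spans 32.6 kb.

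Among clusters of 3, summed scores ran from 8.17 to 26.02. The highest was chr15:89249003-89262028, with 6.11, 12.84 and 7.07. Its middle region, chr15:89256424-89256623, was the strongest of all clustered regions (rank 13 in the BAT list, 187 steps, 161 to 216). The next, chr2:174372950-174374643, packed scores of 5.49, 8.86 and 11.40 into 1.69 kb. At chr2:73333976-73349338 all 3 regions were of like strength (7.49, 7.21 and 8.72), and the weakest of them is the highest minimum of any cluster of 3 or more. At chr12:32782137-32789593 the scores rose along the chromosome from 3.85 through 7.14 to 11.26. At chr1:164796614-164810024 they were 8.45, 10.03 and 2.47, and the next BAT-specific region was 503 kb away.

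Clustered regions had a higher median score than pairs, and pairs a higher one than single regions. The median was 4.12 in clustered regions (n = 214, 95% interval of the median from order statistics 3.78 to 4.53), 3.68 in pairs (n = 636, 3.50 to 3.85) and 3.43 in single regions (n = 2707, 3.37 to 3.57). In steps these are 60, 53.5 and 50. The intervals of clustered regions and pairs overlap, and so do those of pairs and single regions. Those of clustered and single regions do not overlap. Clusters of 4 or 5 (median 4.05, 3.37 to 4.88) and clusters of 3 (4.19, 3.71 to 4.67) had overlapping intervals. Scores of at least 6.87, the top 10% of the BAT list, were reached by 47 of the clustered regions (22.0%, exact interval 16.6 to 28.1%), against 14.3% of pairs (11.7 to 17.3%) and 8.35% of single regions (7.33 to 9.45%). The scores come from the library that chose the clusters and neighbouring regions share their surroundings, so no test was made and the intervals are too narrow.

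The very highest scores were those of a pair member and a single region. The strongest clustered region scored 12.84, whereas pairs reached 20.12 and single regions 16.55. Of the 100 strongest BAT-specific regions, 15 were clustered, where clustered regions are 6.02% of the list.

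**Figure D3:**
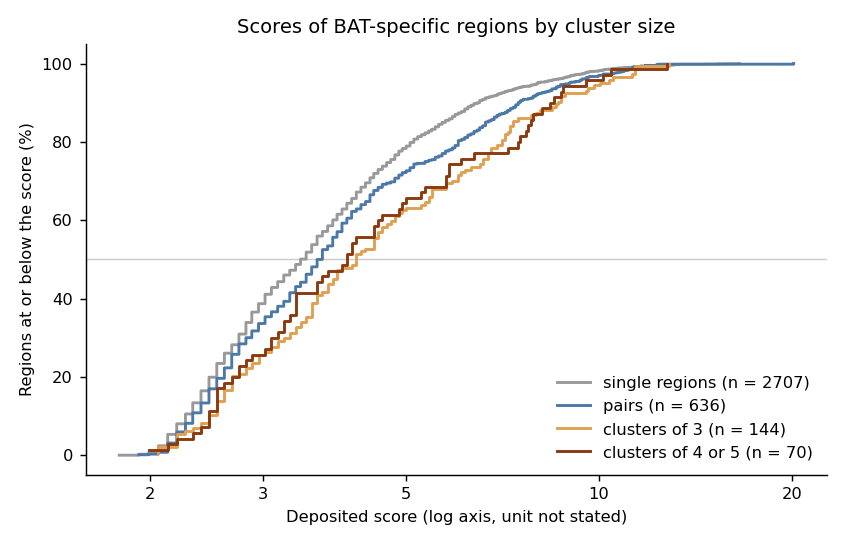
Cumulative percentage of BAT-specific regions (vertical axis) at or below each deposited score (horizontal log axis) for single regions, pairs, clusters of 3 and clusters of 4 or 5. Both cluster curves lie to the right of the pairs over most of the range, with medians of 4.19 and 4.05 against 3.68, and the single regions are farthest left at 3.43.

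Within a cluster, strong and weak sites were mixed. The strongest region scored a median of 2.10 times the weakest (range 1.21 to 5.53), and in 42 of 65 clusters it scored at least 2 times as much. A ratio of at least 2 was found in 28.0% of pairs, 58.3% of clusters of 3 and 82.4% of clusters of 4 or 5. The highest and lowest of more members tend to lie farther apart, so this ratio is not particular to crowding. The Poisson intervals of the strongest and weakest region did not overlap in 49 clusters, although these 2 were picked by their scores. The strongest member had a median score of 6.80, and 32 of 65 were in the top 10% of the list. The other 149 members had a median of 3.43, equal to that of single regions, and 15 of them were in the top 10%. Picking the highest of several raises the first of these medians and lowers the second. All regions were at or above the BAT median in 17 clusters, and all were below it in 2.

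The extremes were both clusters of 3. The largest ratio, 5.53, was at chr1:195149975-195162743, where the scores were 11.40, 5.43 and 2.06. The smallest, 1.21, was at chr2:73333976-73349338. The strongest site was an outer one in 28 of the 48 clusters of 3 and the middle one in 20, where 2 of the 3 positions are outer ones. In the 17 clusters of 4 or 5 it was an outer one in 8. Neighbours within 1 kb differed by a median of 1.42-fold in score (n = 25), and neighbours more than 5 kb apart by 1.79-fold (n = 65). Over all 149 gaps inside clusters the median was 1.59-fold, and over the 318 pairs it was 1.499-fold. The rank correlation (Spearman) of gap with fold difference over those 149 gaps was weak, 0.21, and was not tested.

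Some crowded clusters stood next to each other. There were 4 places where 2 clusters lay within 100 kb, measured between their facing edges, which takes in 8 of the 65. The closest were on chromosome 17, where the 4 regions at chr17:29521765-29536477 and 3 more at chr17:29553271-29560370 (2.68, 2.68 and 5.29) are 16.8 kb apart, giving 7 regions in 38.6 kb. On chromosome 2, the cluster of 5 at chr2:35288142-35308229 was followed after 52.9 kb by 3 regions at chr2:35361149-35366607 (4.46, 6.73 and 6.04), giving 8 regions in 78.5 kb. Also on chromosome 2, the compact cluster of 3 at chr2:174372950-174374643 and the cluster of 4 at chr2:174430611-174435663 were 56.0 kb apart, and each had a summed score of 25.75.

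The fourth place was on chromosome 15, where 3 weak regions at chr15:85475934-85486621 (2.47, 3.16 and 2.54) lay 64.7 kb before the cluster with the highest summed score. That weak cluster has the lowest summed score of the 65, 8.17. An eWAT-specific region lay between these 2 clusters, and none lay between the clusters of the other 3 places. No BAT-specific region outside the clusters lay between them in any of the 4. Beyond these places, the chromosome 8 cluster of 5 had another cluster of 3 at 397 kb, chr8:86208734-86221548, with scores of 7.35, 5.49 and 6.04. Over all 47 neighbouring clusters on the same chromosome, the median distance was 13191 kb.

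The surroundings of the clusters were described by the regions in their flanks. The flanks were taken as 100 kb on each side of the outermost midpoints, leaving out the cluster itself, and members of another cluster count. A BAT-specific region was present in the flanks of 45 of 65 clusters (69.2%, exact interval 56.6 to 80.1%), of 197 of 318 pairs (61.9%, 56.4 to 67.3%) and of 1238 of 2707 single regions (45.7%, 43.8 to 47.6%). An eWAT-specific region was present in the flanks of 24 clusters (36.9%, 25.3 to 49.8%), 110 pairs (34.6%, 29.4 to 40.1%) and 1038 single regions (38.3%, 36.5 to 40.2%). The BAT-specific positions in these counts are those that sorted regions into clusters, pairs and single regions, so the BAT shares are a description and support no difference.

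**Figure D4:**
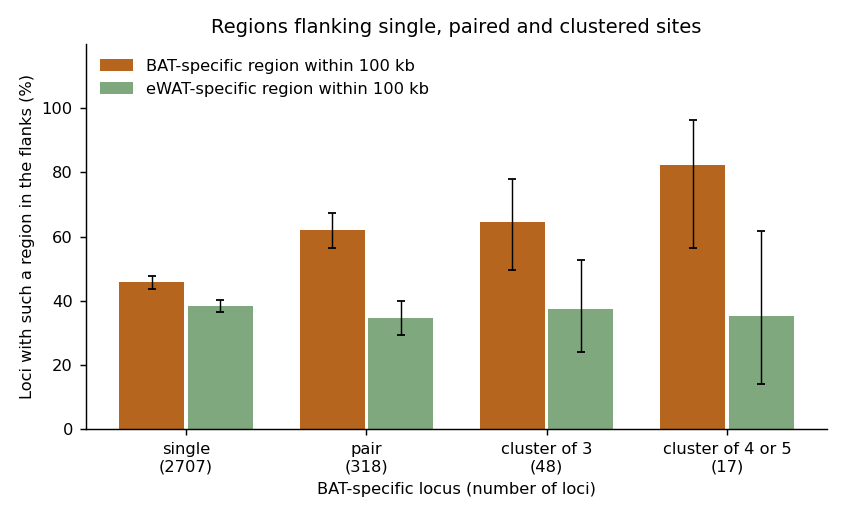
Percentage of loci with at least 1 BAT-specific or eWAT-specific region in the 100 kb on each side, for single regions, pairs, clusters of 3 and clusters of 4 or 5, with exact 95% binomial intervals as error bars. The BAT bars go from 45.7% for single regions to 82.4% for clusters of 4 or 5, and the eWAT bars lie between 34.6% and 38.3%.

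The nearest further BAT-specific region was a median of 55.7 kb from a cluster, 57.8 kb from a pair and 121 kb from a single region, and in all 3 it is more than 12.5 kb by construction. At 14 clusters there were 3 or more flanking BAT-specific regions, and 20 clusters had none. The fullest flanks were those of chr11:117124482-117126124, a cluster of 3 within 1.64 kb that had 7 further BAT-specific regions around it. The most remote cluster, chr8:111166976-111175071 (3.85, 3.50 and 2.54), had its next BAT-specific region 1247 kb away, but an eWAT-specific region at 19.9 kb.

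Few crowded clusters met an eWAT-specific region, and the same holds for BAT-specific regions in general. The lists were deposited as tissue-specific, so some separation follows from how they were made, by a rule that is not given. A member within 12.5 kb of an eWAT-specific region was found in 4 of 65 clusters (6.15%, exact interval 1.70 to 15.01%), against 5.76% of single regions (4.91 to 6.71%). A cluster counts when any of its members is that near, so it covers a wider stretch than a single region does. Counted by region, 10 of 214 clustered regions (4.67%, 2.26 to 8.43%) and 196 of all 3557 BAT-specific regions (5.51%, 4.78 to 6.31%) had an eWAT-specific region within that distance. Among the 17 clusters of 4 or 5 there were 0, which allows a share of up to 19.5% of clusters (exact interval). Regions of 1 cluster share their surroundings, so the intervals counted by region are too narrow. The median distance to the nearest eWAT-specific region was 150 kb for clustered regions and 146 kb for single ones. The intervals of the shares overlap, and a difference in these shares between crowded and single sites was not detectable with this number of clusters.

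The 4 clusters with an eWAT-specific region within 12.5 kb of a member were all clusters of 3. The only cluster with an eWAT-specific region inside its span was chr4:57847078-57860224, with BAT scores of 2.82, 7.28 and 2.40. The eWAT-specific region at chr4:57852170-57852369 (score 5.57 in its own list) lies 2.84 kb from the strongest of the 3, and a second one lies outside the span at 4.89 kb from the first. The closest approach was at chr12:32782137-32789593, where an eWAT-specific region (chr12:32780031-32780230, score 3.83) lies 2.11 kb before the weakest member and all 3 members are within 12.5 kb of it. At chr10:67542902-67553201 (9.82, 6.59 and 2.47) an eWAT-specific region lies 5.09 kb before the strongest member. At chr13:115883368-115896649 (3.23, 9.61 and 4.53) the distance was 10.7 kb.

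Among clusters of 4 or 5, the one at chr14:79672786-79687065 had the most eWAT-specific regions around it, 6 within 100 kb and the nearest at 14.6 kb, beside 2 further BAT-specific regions. Over all clusters, BAT-specific regions outnumbered eWAT-specific ones in the flanks of 36 and eWAT-specific regions were more numerous in 12. The numbers were equal and above 0 in 4, and 13 had neither kind. BAT-specific regions also prevailed around other sites. They made up 72.7% of the flanking regions of clusters, 68.8% of those of pairs and 58.2% of those of single regions. The BAT-specific positions chose the clusters, so these shares support no difference.

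Crowded clusters were found on 18 of the 20 chromosomes with BAT-specific regions. Chromosomes 2 and 8 had 9 clusters each, chromosome 11 had 6 and chromosome 15 had 5. Together chromosomes 2 and 8 held 60 of the 214 clustered regions (28.0%), and 14.6% of all BAT-specific regions. On chromosome 8, 30 of 209 BAT-specific regions were clustered (14.4%, exact interval 9.90 to 19.9%), on chromosome 15, 16 of 152 (10.5%, 6.14 to 16.5%), and on chromosome 2, 30 of 312 (9.62%, 6.58 to 13.4%), against 6.02% in the list as a whole. On chromosome 18 the number was 0 of 143, which allows a share of up to 2.55% (exact interval), and on chromosome X it was 0 of 37, which allows up to 9.49%. Regions of 1 cluster are clustered together by definition, so these intervals are too narrow, and no test was made between chromosomes.

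**Figure D5:**
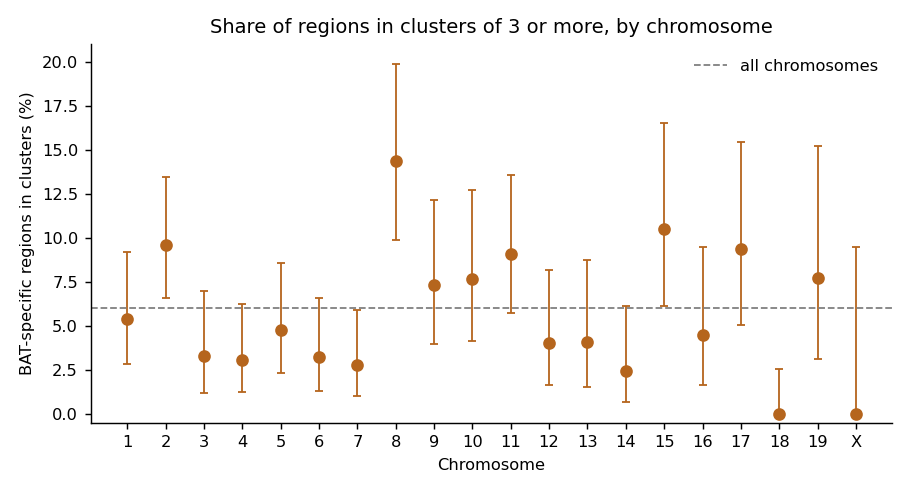
Percentage of the BAT-specific regions of each chromosome that lie in clusters of 3 or more, with exact 95% binomial intervals as error bars; the dashed line is the value over all chromosomes, 6.02%. Chromosome 8 is highest at 14.4%, and chromosomes 18 and X are at 0.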

How the data were processed

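PPARγ ChIP-seq gave 1 deposited list of tissue-specific regions for BAT and 1 for eWAT, each from the pooled DNA of 4 mice, per the labels' protocols. Bowtie and HOMER and the builds mm8 and mm9 are named, without versions or roles, per the submitters' processing notes. The authors deposited a score for each 200 bp region, with no stated unit, scaling or threshold. Nothing used here states the treatment of input DNA, the rule for tissue-specific regions or the depth per library.

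Samples were grouped by the tissue in the labels. Clusters, gaps, flanks (100 kb) and distances were computed between midpoints, and spans and distances from cluster to cluster between outer edges, with Python 3.11.15, pandas 2.3.3, NumPy 2.4.6 and SciPy 1.17.1, and tested on simulated positions and scores. Shares have exact (Clopper-Pearson) 95% intervals, which cover counting error only. All clusters of 4 or 5 regions and the 5 clusters of 3 with the highest summed score were to be described one by one, and others named were chosen after their values were seen. The members and lists were chosen with earlier results of these data known. Alternatives were joining within 5 or 25 kb, the upper part of the list by score, merging within 1 kb, leaving out chromosome 2 or 8, and other distances to eWAT regions. Gene lists and motifs were not run, since no mm9 annotation or sequence was used here; the gene tables at hand are GRCm38.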

Additional observations from a re-analysis of the deposited data

How the results depend on the processing

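The number of clustered regions (214) and of clusters (65) depends on the joining distance: 75 regions in 24 clusters were left within 5 kb, and 459 regions in 134 clusters were found within 25 kb. With regions at or above the BAT median score alone, 64 regions in 20 clusters were left, with a median score of 6.22, which the floor itself raises. The 4 clusters with an eWAT-specific region nearby became 0 with joining within 5 kb, 10 with joining within 25 kb, 1 in the upper part of the list by score, 14 when eWAT regions up to 50 kb away counted and 1 when only those inside the span counted. Merging of regions within 1 kb first left 153 regions in 48 clusters. Leaving out chromosome 2, or chromosome 8, left 184 regions in 56 clusters. All these counts are within 1.5 times of the main ones. Chromosomes 2 and 8 each held 30 clustered regions in 9 clusters, so the counts without either follow by subtraction. The 4 clusters with an eWAT-specific region nearby lie on chromosomes 4, 10, 12 and 13. Leaving out chromosome 2 or 8 could therefore not change that number, and it also stayed at 4 after merging within 1 kb. The median score of clustered regions was 3.91 to 4.46 under every alternative except the score floor. Leaving out chromosome 2 or 8 stands for leaving out the chromosome with most clusters, since both had 9. No library could be left out. No paired analysis was possible because there is a single library for BAT and a single one for eWAT. The alternatives for the PPARγ motif and for genes were not run.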
